A study of Vitis vinifera with 36 samples.

Results

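The seeds of Italia (IT), a seeded table grape of Vitis vinifera, were compared between post-bloom (S2, BBCH 65 to 68 and modified E-L 19 to 25) and pea size (S3, BBCH 73 to 75 and E-L 29) on 1-colour Agilent microarrays. The 3 arrays titled IT S3 were set against the 3 titled IT S2, which are 6 of the 36 arrays analysed, and every non-control probe of the deposited value table that was measurable in some group was kept, 22146 of 22683 probes. The other arrays hold Italia at pre-bloom (S1) and veraison (S4), and the seeded Red Globe (RG) and the seedless Thompson Seedless (TS) at the same 4 stages, with 3 biological replicates each. All vines grew in the field in South Italy under conventional management and received no hormone treatment. Ovules and seeds were dissected by hand and pooled for RNA extraction, so a value is an average over integuments, nucellus, endosperm and embryo, and fewer cells of a type and less RNA per cell cannot be told apart. Italia is a single variety, and berries on a bunch do not reach a stage on the same day.

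After bloom and fertilization, the grapevine ovule grows into a seed. The integuments become the seed coat, whose inner layers accumulate proanthocyanidins (condensed tannins) and whose middle layer later hardens with lignin, while the endosperm divides and then stores oil and protein. The MADS-box gene VviAGL11 is the ovule identity gene that is needed for the seed coat to form, and its mutated form in Thompson Seedless goes with seeds that stop growing. Up to pea size the embryo is small and the seed is green.

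Signal is given as scaled log2 signal, in which 0 is the 75th percentile of an array's probes and a difference of 1 is a 2-fold difference. The 75th percentile lay between 490.0 and 1509 intensity units on the 6 arrays, no probe was saturated, and replicates of a stage correlated at 0.939 to 0.987 over all probes tested. Between 93.7% and 96.3% of probes were well above background on 5 of the arrays and 70.9% on IT S2 replicate 2. The median SD between replicates was 0.31 at S2 and 0.36 at S3. In Italia each replicate number was scanned on a day of its own together with the same number of the other stages. A difference between S2 and S3 within a number is therefore within a scan day, but within a slide only for replicate 1. Only a few probes carry a functional annotation, 3726 of those tested, and these names come from tables that the study selected partly on these arrays, so annotated probes are not a random draw of the genome.

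The labelled tissue was checked against its markers first. VviAGL11 (VIT_18s0041g01880) read 2.47, 2.36 and 2.49 on the S2 arrays of replicates 1 to 3 and 4.64, 4.56 and 4.18 on the S3 arrays. The stages did not overlap, and VviAGL11 rose 4.05-fold (log2 change 2.02, SE 0.42, n = 3 per stage, limma's adjusted p = 0.00259). Its call held under all 24 alternatives that were fitted, and its mean was 3.46 at S1 and 5.21 at S4. Anthocyanidin reductase (VIT_00s0361g00040) and leucoanthocyanidin reductase 1 (VIT_01s0011g02960), the enzymes that make the units of seed coat tannins, were also well above background on all 6 arrays. The endosperm gene EDE1 (VIT_05s0094g00420), a microtubule protein of the dividing endosperm in Arabidopsis, was well above background on 2 of 3 S2 arrays and all S3 arrays, and read −2.36, −3.90 and −2.61 at S2 and −1.93, −2.97 and −2.95 at S3, with a log2 change of 0.34 (SE 0.51, adjusted p = 0.779). A leafy cotyledon 1-like probe, an embryo regulator, was dim as well, with a mean of −4.89 at S2 and −3.88 at S3 (log2 change 1.01, adjusted p = 0.597). INNER NO OUTER and VviPI were not found among the annotations used here.

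Genes of neighbouring floral organs were measured beside the seed genes. VviAP3b (VIT_04s0023g02820), a B-function gene of petals and stamens, read 2.28, 1.68 and 1.49 at S2 and −0.63, −1.04 and −0.47 at S3. All 3 S3 arrays lay below all S2 arrays, and VviAP3b fell 5.76-fold (log2 change −2.53, SE 0.54, adjusted p = 0.00279), while VviAP3a had a log2 change of −0.04 (SE 0.63, adjusted p = 0.987). The summed signal of both genes, in units of the 75th percentile, ranged from 3.43 to 5.37 at S2 and from 0.994 to 1.62 at S3, and neither was at background. Of 4 pollen and anther probes, 1 rose and none fell, and their summed signal was 42.7 to 47.7 at S2 and 54.5 to 65.6 at S3. Most of that sum came from probes annotated pollen Ole e 1 allergen and extensin, which are also in the cell wall list. Their means were 4.98 and 3.68 at S2 and 4.63 and 5.07 at S3, and they include the 1 that rose. The male sterility MS5 probes were dimmer, with means of −5.04 and −1.63 at S2 and −4.41 and −1.17 at S3. The part of floral tissue in the results that follow was not tested.

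Across the 22146 probes, 2061 were called different between pea size and post-bloom, which is 9.31%, at an adjusted p under 0.05 and a change of over 2-fold in limma. Of these, 916 were higher at S3 (4.14%) and 1145 were lower (5.17%). The falls were the larger changes, with a median of 2.12 log2 units (sign dropped) against 1.60 for the rises, and 102 probes fell but 27 rose by more than 16-fold. The 2 stages did not overlap for 1975 of the called probes, against a background of 37.0% of all probes tested. The direction was the same on all 3 scan days for 2047 of the called probes. Both counts come from the arrays that gave the calls, so they add no support of their own. Genes named from the lists, and the largest rises and falls, were picked among calls without overlap. That their stages lie apart was therefore set by the choice. Of the 916 rises, 193 had been called lower from S1 to S2, as were 1066 of all probes tested. Of the 1145 falls, 355 had been called higher from S1 to S2, as were 967 of all probes tested. Both steps use the S2 arrays, which favours opposite directions. Probes with an annotation were called more often upwards, 435 higher and 146 lower of 3726 (15.6%), than those without one, 481 higher and 999 lower of 18420. The gene lists that follow hold only annotated probes, of which 11.7% were called higher, with a median log2 change of 0.32, and these values are the nearer background for a list. The share of rises among the calls was 44.4%, but 32.5% with normexp background correction (531 higher and 1101 lower) and 64.0% without scaling between arrays (197 higher and 111 lower). The count was 993 without IT S3 replicate 2, 1245 without IT S2 replicate 1, 1322 without IT S2 replicate 3 and 1278 without IT S3 replicate 1, and 1800 without IT S2 replicate 2, the array with the fewest probes above background. With 3 arrays a stage, an exact two-sided permutation test of a single probe cannot go below p = 0.10, so calls rest on the spread that limma pooled over all 36 arrays. That spread includes the dim array IT S1 replicate 3, with 41.3% of probes well above background and a 75th percentile of 125.7 intensity units. When only the 6 arrays were fitted, 2730 probes were called, and 1686 of them were also called in the main fit. Of the 78 genes named, 29 lost their call without scaling between arrays.

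**Figure D1:**
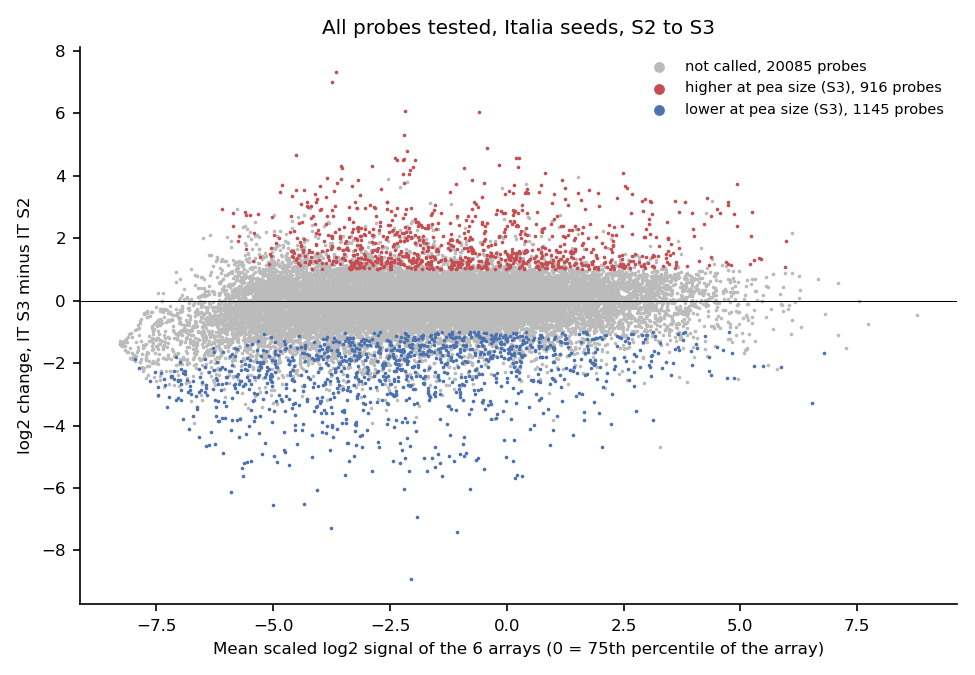
Each point is 1 of 22146 probes, with its mean scaled log2 signal on the 6 arrays on the x axis and its log2 change from IT S2 to IT S3 on the y axis. The 916 probes called higher and the 1145 called lower are spread over the whole range of signal, and the falls reach farther from 0 than the rises.

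Photosynthesis genes rose together. Of 42 tested probes for photosystems, light-harvesting proteins, Rubisco and chlorophyll synthesis, 24 rose (57.1%, against 11.7% of all annotated probes) and none fell. The list's median log2 change was 1.45 against 0.32 over all annotated probes and −0.04 over all probes. Within scan days the median was 1.18, 1.43 and 1.68. LHCA4 (VIT_17s0000g06350), an antenna protein of photosystem I, read −2.01, −0.66 and −2.02 at S2 and 0.84, 1.63 and 1.44 at S3. The stages were fully apart, which was a condition of its choice, and LHCA4 rose 7.31-fold (log2 change 2.87, SE 0.43, adjusted p = 9.19e-05). Photosystem I subunit XI (VIT_04s0023g00410) went from 0.57, 0.74 and 0.36 to 2.55, 3.07 and 3.45, a 5.54-fold rise (log2 change 2.47, SE 0.32, adjusted p = 1.75e-05). By complex, 9 of 12 probes of photosystem I and its antennae rose, as did 8 of 11 of photosystem II and its antennae. Plastocyanin (VIT_18s0001g00760), the copper protein that passes electrons to photosystem I, and GUN4 (VIT_05s0102g00310), an activator of chlorophyll synthesis, were chosen after their values were seen. Plastocyanin rose by a log2 change of 2.14 (SE 0.24, adjusted p = 3.26e-06) and GUN4 by 3.69 (SE 0.44, adjusted p = 7.26e-06), 12.9-fold. At veraison LHCA4 averaged −2.67 and photosystem I subunit XI −2.22. The summed signal of the list, which also served as the marker list of green tissue, was 72.2 to 83.5 at S2 and 202 to 356 at S3, and how much green fruit tissue came with the seeds was not tested. With the slide as a fixed block, which rests the comparison on replicate 1, 14 of the 42 were called.

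Of 44 tested flavonoid probes, 17 rose (38.6%, against 11.7% of all annotated probes), 3 fell and 24 were not called. Their median log2 change was 0.80, or 0.13 with normexp background correction and 0.49 without IT S3 replicate 3, and 17 of the 44 had a negative change. The rises numbered 11 without IT S3 replicate 1, and the falls 1 without IT S2 replicate 1, IT S2 replicate 3 or IT S3 replicate 2 and 6 without IT S3 replicate 3. Flavanone 3-hydroxylase 1 (VIT_04s0023g03370), which makes the dihydroflavonols that lead to tannins, flavonols and anthocyanins, read −0.86, 0.25 and −0.54 at S2 and 3.48, 3.28 and 1.82 at S3. No S3 array came near the S2 arrays, and the gene rose 9.46-fold (log2 change 3.24, SE 0.62, adjusted p = 0.00114). Isoflavone reductase 5 (VIT_03s0038g04660) rose from −0.60, −0.45 and −0.74 to 2.40, 3.12 and 2.11, 8.81-fold (log2 change 3.14, SE 0.49, adjusted p = 0.000121). It belongs to a row of 7 neighbouring genes on chromosome 3 with this annotation (VIT_03s0038g04620 to VIT_03s0038g04710), all of which rose, by log2 changes of 1.35 to 3.14. Near-identical copies can cross-hybridize, so the 7 are not independent measurements.

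Other steps of the pathway were chosen after their values were seen. A probe annotated to chalcone and stilbene synthases (VIT_00s0317g00160) had the steepest rise of the list, from −5.13, −5.00 and −4.43 to 1.12, 1.01 and −0.73 (log2 change 5.32, SE 1.04, adjusted p = 0.00132). The call was lost with the slide as a fixed block (4.29, adjusted p = 0.0605). The probe was well above background on 2 of 3 S2 arrays, and the annotation does not separate the flavonoid enzyme from the defence enzyme. Flavonoid 3'-hydroxylase b (VIT_17s0000g07210) and flavonol synthase (VIT_18s0001g03430) rose by log2 changes of 2.71 and 2.99 (adjusted p = 0.000522 and 0.000193). Anthocyanidin reductase read 3.54, 4.15 and 3.50 at S2 and 6.60, 6.21 and 5.57 at S3, a rise of 2.40 log2 units (SE 0.66, adjusted p = 0.0182), and leucoanthocyanidin reductase 1 read 1.08, 1.82 and 0.95 at S2 and 4.08, 3.64 and 2.43 at S3, a rise of 2.10 (SE 0.64, adjusted p = 0.0308). For both tannin enzymes the stages were apart on every array, but each call was lost without IT S2 replicate 1 (log2 change 2.30 and 2.00), IT S2 replicate 3 (2.28 and 1.93), IT S3 replicate 1 (2.16 and 1.75) or IT S3 replicate 2 (2.36 and 1.97), and that of leucoanthocyanidin reductase 1 also with the slide as a fixed block (2.13, adjusted p = 0.0893). At S1 the means of anthocyanidin reductase and leucoanthocyanidin reductase 1 were 5.21 and 2.73, above those at S2. The falls included both probes of 2'-hydroxy isoflavone/dihydroflavonol reductase, of which VIT_15s0048g01010 went from a mean of −2.40 to −4.31 (log2 change −1.92, SE 0.52, adjusted p = 0.0169). That call was lost without IT S2 replicate 1 (−1.78), IT S2 replicate 3 (−1.90) or IT S3 replicate 2 (−1.73).

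The phenylpropanoid pathway upstream, which also feeds lignin, held 7 rises (17.1%) and 1 fall among 41 probes, with a median log2 change of 0.43 (−0.03 with normexp background correction), and 4 rises without IT S3 replicate 1 or IT S3 replicate 2. Phenylalanine ammonia-lyase (VIT_06s0004g02620), the entry enzyme, read 0.34, 1.22 and 0.78 at S2 and 5.05, 4.86 and 3.24 at S3. It rose 12.2-fold (log2 change 3.60, SE 0.74, adjusted p = 0.00205) with the stages apart, and kept a mean of 4.75 at S4. Its S1 mean was 3.62, and it had fallen from S1 to S2 (log2 change −2.84, adjusted p = 0.0122). A dirigent protein (VIT_06s0004g00990), of a family that guides the coupling of phenolic units, rose 7.48-fold from a tight −1.38, −1.42 and −1.14 to 1.36, 1.74 and 1.67 (log2 change 2.90, SE 0.48, adjusted p = 0.000284). The 12 probes of 4-coumarate-CoA ligase split, with 3 rises and 1 fall. The falling one, VIT_16s0050g00390, went from 3.31, 3.14 and 3.89 to −0.60, 0.83 and 1.81 (log2 change −2.77, SE 0.56, adjusted p = 0.002), whereas 4-coumarate-CoA ligase 2 (VIT_11s0052g01090, chosen after its values were seen) rose from 0.40, 0.29 and 0.44 to 2.92, 3.07 and 2.07 (log2 change 2.31, SE 0.37, adjusted p = 0.00017). Outside the list, anthranilate N-benzoyltransferase protein 1 (VIT_00s0207g00010) was among the 5 largest called rises of annotated probes that were well above background on all 6 arrays and did not overlap, from −2.64, −1.59 and −2.79 to 2.10, 2.44 and 1.47 (20.3-fold, adjusted p = 2.89e-06).

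**Figure D2:**
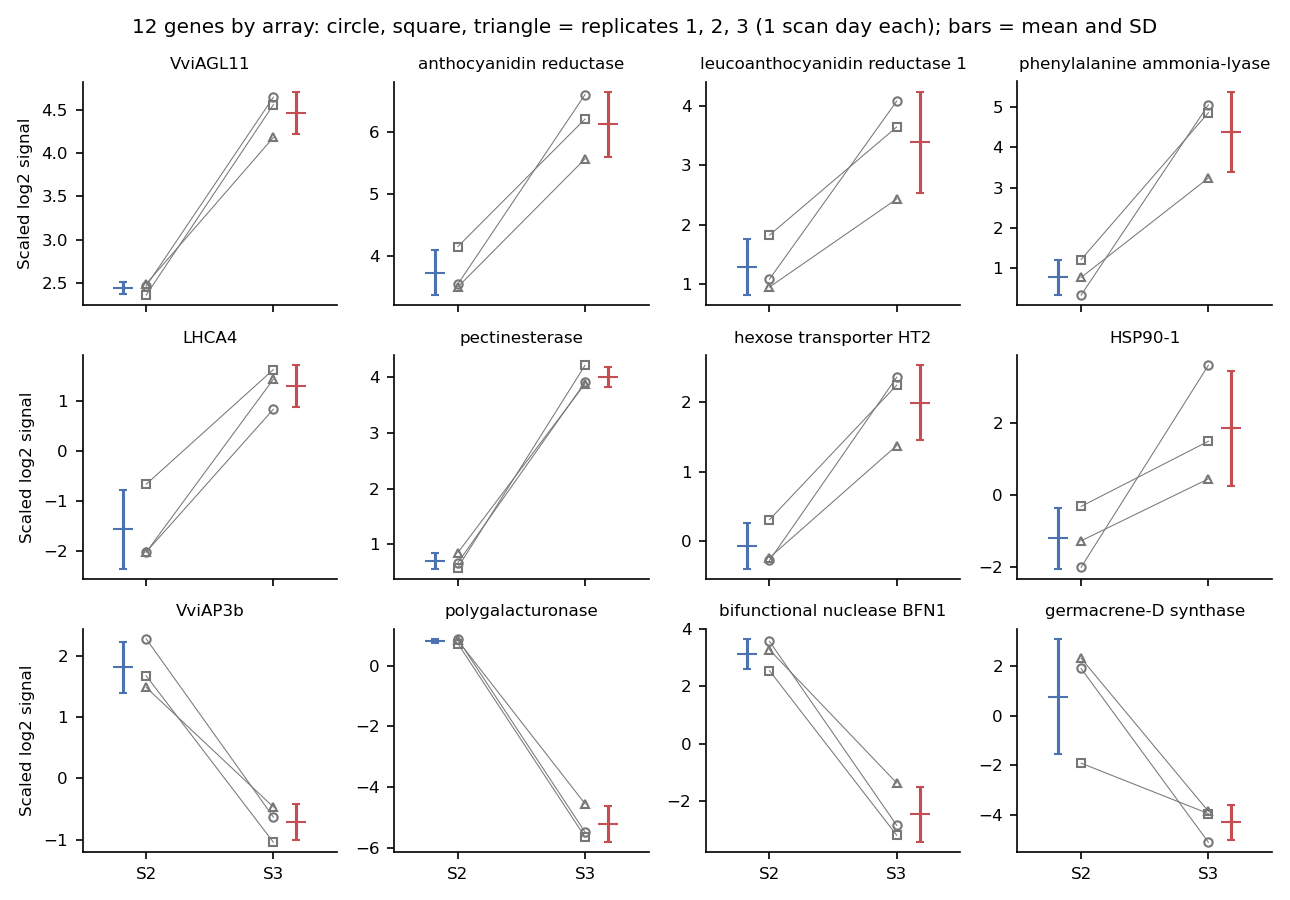
Scaled log2 signal of 12 genes on each IT array at S2 and S3, with 1 symbol and thin line per replicate and the mean and SD of each stage beside them. VviAGL11 and the pectinesterase keep close replicates, HSP90-1 spreads widely at S3, and the germacrene-D synthase is high at S2 in replicates 1 and 3 but not in replicate 2.

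The cell wall list gave 11 rises (14.3%, near the 11.7% of all annotated probes) and 1 fall of 77 probes, with a median log2 change of 0.34, or −0.24 with normexp background correction, and the rises numbered 7 without IT S2 replicate 3, 6 without IT S3 replicate 1 and 4 without IT S3 replicate 2. A glucan endo-1,3-beta-glucosidase (VIT_18s0122g00980), of the enzymes that cut callose, rose from −1.38, −0.74 and −1.22 to 3.00, 2.90 and 1.85 (log2 change 3.70, SE 0.48, adjusted p = 1.75e-05). A pectinesterase (VIT_11s0016g03020, chosen after its values were seen), which removes methyl groups from pectin, rose from 0.67, 0.58 and 0.85 to 3.91, 4.21 and 3.88 (log2 change 3.30, SE 0.51, adjusted p = 0.000125). Both genes had fully separate stages, and their means at S4 were −4.43 and −2.54. Polygalacturonases, which cut the pectin backbone, moved in opposite directions. VIT_01s0127g00400 rose from −1.59, −2.03 and −1.61 to 1.07, 1.84 and 2.14 (log2 change 3.42, SE 0.89, adjusted p = 0.0124), a call that was lost without IT S3 replicate 2 (3.35) and with the slide as a fixed block (3.09, adjusted p = 0.142). VIT_13s0064g00750 fell 65.1-fold from 0.87, 0.73 and 0.83 to −5.47, −5.63 and −4.54 (log2 change −6.03, SE 0.79, adjusted p = 2.11e-05), the steepest fall of the list. Of 9 polygalacturonase probes, 2 rose and 1 fell. The fasciclin-like arabinogalactan protein FLA2 (VIT_12s0057g01020, chosen after its values were seen), a wall glycoprotein, rose 7.72-fold (adjusted p = 6.18e-05).

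Cell division genes gave 5 rises and no fall among 102 probes (4.90%, against 11.7% of all annotated probes and 4.14% of all probes). Their median log2 change was 0.26 over the 6 arrays but 0.86, 0.08 and −0.34 on the 3 scan days, and −0.14 with normexp background correction, so no direction is given. The count of rises was 2 without IT S3 replicate 1 or IT S3 replicate 2, 3 without IT S2 replicate 1 or IT S2 replicate 3, and 9 without IT S3 replicate 3. None of 16 histone probes was called. Tubulin alpha-3 chain (VIT_18s0001g08250) rose from 0.83, 1.07 and 0.71 to 2.90, 2.94 and 1.74 (log2 change 1.65, SE 0.48, adjusted p = 0.0237), but the call was lost without IT S2 replicate 1 (1.63), IT S2 replicate 3 (1.57), IT S3 replicate 1 (1.47) or IT S3 replicate 2 (1.45), and with the slide as a fixed block (1.58, adjusted p = 0.0692). The ovate family protein OFP3 (VIT_06s0004g07910, chosen after its values were seen), of a family that shapes organs, rose from −5.58, −5.34 and −5.66 to −1.69, −1.65 and −1.90 (log2 change 3.78, SE 0.36, adjusted p = 5.52e-07), although it was well above background on 2 of 3 S2 arrays and its call was lost with normexp background correction (1.02, adjusted p = 0.0788).

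Of 123 ribosome and translation probes, 9 rose (7.32%, against 11.7% of all annotated probes) and none fell. Their median log2 change was 0.61, against 0.32 over all annotated probes, and 116 had a positive value. There were 4 rises without IT S3 replicate 1 and 2 without IT S3 replicate 2. Within scan days the median was 0.87, 0.44 and 0.42. Ribosomal protein L1 (VIT_12s0028g01980) rose 2.19-fold, from −1.55, −1.45 and −1.74 to −0.11, −0.15 and −1.09 (log2 change 1.13, SE 0.22, adjusted p = 0.00141), and fell short of the 2-fold threshold without IT S3 replicate 1 (0.96) or IT S3 replicate 2 (0.98) and with normexp background correction (0.84), and its call was lost when only the 6 arrays were fitted, without (adjusted p = 0.0573) or with the replicate number as a block (adjusted p = 0.067). The initiation factor eIF-1 (VIT_19s0177g00110), which helps the ribosome find the start codon, went from a mean of −3.24 to −1.32 (adjusted p = 0.0396), a call lost whichever IT array was left out (log2 changes 1.85 to 2.01) and with normexp background correction (0.82, adjusted p = 0.128). Of 52 heat shock and chaperone probes, 8 rose (15.4%) and none fell, with a median log2 change of 0.80 and scan-day medians of 1.21, 0.49 and 0.49. The rises numbered 2 without IT S3 replicate 1, 4 without IT S2 replicate 3 or IT S3 replicate 2, 5 without IT S2 replicate 1 and 17 without IT S3 replicate 3. HSP90-1 (VIT_16s0050g01150), a chaperone induced by heat, read −2.01, −0.31 and −1.27 at S2 and 3.61, 1.50 and 0.45 at S3. Its S3 arrays spread over more than 3 log2 units (log2 change 3.05, SE 0.84, adjusted p = 0.0182), and the call was lost without IT S3 replicate 1 (2.17), IT S2 replicate 1 (2.65) or IT S2 replicate 3 (3.02), and with the replicate number as a block when only the 6 arrays were fitted (adjusted p = 0.08). A 16.9 kDa heat shock protein (GSVIVT01016396001) was tighter, going from 1.39, 1.57 and 1.26 to 3.54, 2.88 and 2.80 (log2 change 1.67, SE 0.29, adjusted p = 0.000461).

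Lipid, cutin and wax genes gave 11 rises (16.2%) and 4 falls of 68 probes, with a median log2 change of 0.36 and 7 rises without IT S3 replicate 1 or 6 rises and 2 falls without IT S3 replicate 2. Acyl carrier proteins, which hold the growing chain in fatty acid synthesis, rose in 4 of 5 probes. The probe annotated as a mitochondrial acyl carrier protein (VIT_00s0259g00160) went from −1.78 ± 0.63 to 0.73 ± 0.40 (mean ± SD, n = 3) without overlap (log2 change 2.52, SE 0.48, adjusted p = 0.0011). Eceriferum 1 (VIT_15s0021g00050), an enzyme of wax alkane synthesis, rose from 0.77, −0.06 and 0.08 to 2.99, 2.81 and 2.13 (log2 change 2.38, SE 0.51, adjusted p = 0.00327), a call lost with the slide as a fixed block (1.88, adjusted p = 0.107). In the other direction, a 3-ketoacyl-CoA synthase (VIT_16s0022g01570), of the enzymes that lengthen fatty acids for wax and cutin, fell 24.5-fold from −1.40, −0.60 and −0.77 to −4.96, −6.48 and −5.17 (adjusted p = 6.36e-05). The peroxisomal thiolase VIT_05s0051g00720, of fatty acid breakdown, fell 2.74-fold (log2 change −1.45, SE 0.29, adjusted p = 0.00167), a call lost with the replicate number as a block when only the 6 arrays were fitted (adjusted p = 0.056).

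Of 16 seed storage and maturation probes, 2 rose (12.5%, near the 11.7% of all annotated probes) and none fell (2 fell without IT S3 replicate 3). The median log2 change was 0.37, or −0.27 with normexp background correction. Both risers carry the annotation protease inhibitor/seed storage/lipid transfer protein, a family that is also active in epidermis and seed coat. VIT_03s0017g02260 went from 1.96, 2.36 and 2.20 to 4.26, 4.62 and 5.18 (log2 change 2.52, SE 0.42, adjusted p = 0.000252), and VIT_11s0016g05840 from −0.12, 1.37 and 0.14 to 3.02, 2.67 and 2.77 (log2 change 2.36, SE 0.47, adjusted p = 0.00163). Sugar and starch genes gave 5 rises (15.6%) and 1 fall of 32, with a median log2 change of 0.34 and between 1 and 3 rises when IT S2 replicate 1, 2 or 3, IT S3 replicate 1 or IT S3 replicate 2 was left out. The fall was lost without IT S2 replicate 1, IT S2 replicate 3, IT S3 replicate 1 or IT S3 replicate 2, and 2 fell without IT S3 replicate 3. The hexose transporter HT2 (VIT_18s0001g05570) went from −0.27, 0.31 and −0.23 to 2.36, 2.25 and 1.38 (log2 change 2.06, SE 0.51, adjusted p = 0.00939), a call lost without IT S3 replicate 1 (1.88) or IT S3 replicate 2 (1.93). Fructokinase-1 (GSVIVT01010790001), which phosphorylates fructose, rose 2.85-fold from 0.65 ± 0.40 to 2.16 ± 0.67 (mean ± SD, n = 3; adjusted p = 0.00235).

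Hormone genes moved in both directions. Of 26 auxin probes 3 rose (11.5%, near the 11.7% of all annotated probes) and 2 fell. The indole-3-acetate beta-glucosyltransferase VIT_03s0180g00320, of the enzymes that attach glucose to auxin, rose from 2.36, 3.24 and 2.11 to 5.64, 5.59 and 4.87 (log2 change 2.80, SE 0.61, adjusted p = 0.00326). An auxin-induced beta-glucosidase (VIT_07s0005g01300) fell from −1.12, −1.37 and −1.01 to −4.40, −5.34 and −4.52 (log2 change −3.59, adjusted p = 0.000959), and an AUX1 auxin influx carrier (VIT_13s0067g00330) fell 3.18-fold from 0.31, 0.13 and 0.06 to −1.34, −2.30 and −0.88 (adjusted p = 0.0019), a call lost with the slide as a fixed block (−1.36, adjusted p = 0.111) and without scaling. Among 102 probes of other hormones, 3 rose (2.94%) and 6 fell, and 8.82% were called, against 15.6% of all annotated probes. Their median log2 change was −0.24 and turned to 0.25 without scaling between arrays. It was −0.14 without IT S3 replicate 1 and −0.36 without IT S3 replicate 3. The falls numbered 2 without IT S2 replicate 1, IT S2 replicate 3 or IT S3 replicate 2. Gibberellin 20 oxidase 2 (VIT_03s0063g01290), an enzyme of gibberellin synthesis, rose 11.1-fold from −1.18, −0.44 and −1.52 to 2.60, 2.49 and 2.18 (log2 change 3.47, SE 0.47, adjusted p = 2.98e-05). Of 7 probes annotated nodulin 1A, 6 rose by log2 changes of 2.88 to 3.58, and cross-hybridization between these copies was not tested. The cytokinin-responsive GATA factor CGA1 (VIT_04s0008g01290) rose 2.84-fold (log2 change 1.50, SE 0.37, adjusted p = 0.00897), a call lost without IT S2 replicate 1 (1.26). Of 14 probes for ACC oxidase, the enzyme of the last step of ethylene synthesis, none rose and 3 fell. VIT_02s0012g00360 went from 2.31, 2.27 and 2.43 to −0.06, −0.48 and 1.12 (log2 change −2.14, SE 0.39, adjusted p = 0.000696). VIT_00s2086g00010 went from a mean of 3.06 to 0.94 (log2 change −2.12, adjusted p = 0.0458), and its call was lost whichever of the 6 IT arrays was left out, with log2 changes between −2.31 and −1.91, as well as with the slide as a fixed block (−2.19) and with median scaling (−2.07).

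MADS-box and organ identity genes gave 9 rises and 2 falls of 31, the share of rises (29.0%) being above that of all annotated probes (11.7%), and their median log2 change was 0.74, or −0.27 with normexp background correction. The rises numbered 5 without IT S2 replicate 1, 4 without IT S2 replicate 3 and 4 without IT S3 replicate 2, and the falls 1 whichever array was left out. Besides VviAGL11, squamosa promoter-binding proteins, a family that sets the timing of developmental phases, rose in 4 of 9 probes and fell in 1. VIT_08s0007g06270 rose from −2.83, −2.25 and −2.75 to −0.63, −0.45 and −0.61 (log2 change 2.04, SE 0.50, adjusted p = 0.00837), while VIT_01s0011g00130 went from a mean of −2.75 to −4.42 (adjusted p = 0.0432), its call lost whichever IT array was left out (log2 changes −1.81 to −1.49) and with the slide as a fixed block (−1.40). A type delta MADS-box gene (VIT_04s0008g01980, chosen after its values were seen) rose 15.0-fold from −5.89, −5.60 and −5.04 to −1.06, −1.71 and −2.02 (adjusted p = 0.000529), from a level near background, but by a log2 change of 1.17 and short of the threshold with normexp background correction (adjusted p = 0.135).

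Among 92 probes of other transcription factor families, 10 rose (10.9%, near the 11.7% of all annotated probes) and 4 fell. In total 15.2% were called, near the 15.6% of all annotated probes. The median log2 change was 0.18, or −0.46 with normexp background correction, and the calls were 5 up and 1 down without IT S3 replicate 2, 6 up and 2 down without IT S2 replicate 3, 2 down without IT S2 replicate 1 and 1 down without IT S3 replicate 1. A MYB gene (VIT_02s0033g00300) rose from −1.11, −1.46 and −1.04 to 0.32, 1.87 and 1.40 (log2 change 2.40, SE 0.52, adjusted p = 0.00327), lost with the slide as a fixed block (1.69, adjusted p = 0.168). A NAC gene (VIT_19s0014g03300) went from a mean of −2.91 to −0.60 (adjusted p = 0.0417), a call that held only without IT S3 replicate 3 among the arrays left out, with log2 changes between 1.97 and 2.56 in the others. It was also lost with normexp background correction (1.31), with the slide as a fixed block (1.89) and with the replicate number as a block (adjusted p = 0.0507). The named falls were bHLH genes. VIT_11s0052g00100 went from 4.40, 3.42 and 4.45 to 0.06, 1.17 and 2.80 (log2 change −2.75, SE 0.79, adjusted p = 0.0226), lost without IT S2 replicate 1 (−2.59), IT S2 replicate 3 (−2.57), IT S3 replicate 1 (−2.10) or IT S3 replicate 2 (−2.66), and VIT_18s0001g10300 from −0.92, −1.36 and −1.22 to −3.76, −3.33 and −3.03 (log2 change −2.21, SE 0.56, adjusted p = 0.011), lost without IT S3 replicate 1 (−2.02).

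Transport genes were the largest list, and 8 rose (4.57%) and 11 fell of 175, with 10.9% called against 15.6% of all annotated probes. Their median log2 change was −0.29 and became 0.20 without scaling between arrays. The rises and falls numbered 5 and 5 without IT S2 replicate 1, 4 and 5 without IT S2 replicate 3 and 4 and 6 without IT S3 replicate 2, and 6 fell without IT S3 replicate 1. ABC transporters, 132 of the 175 probes, gave 9 falls and 3 rises. The ABC transporter VvWBC17 (VIT_07s0031g02550) rose 12.7-fold from −0.31, 2.12 and 0.30 to 3.58, 4.60 and 4.92 (adjusted p = 0.002), and its S1 mean was 2.85. The pleiotropic drug resistance transporter PDR12 (VIT_09s0002g05390) fell 4.83-fold from −0.64, 0.02 and −0.56 to −2.91, −3.29 and −1.81 (adjusted p = 0.000411), and VvMRP21 (VIT_07s0005g00260) went from a mean of −0.56 to −2.96 (adjusted p = 0.0214), lost without IT S2 replicate 1 (−2.28), IT S2 replicate 3 (−2.41), IT S3 replicate 1 (−2.17) or IT S3 replicate 2 (−2.17) and with the slide as a fixed block (−2.14). A high-affinity K+ transporter (VIT_11s0103g00050), which is not in this list, had the largest called rise without overlap among annotated probes measured on all 6 arrays. It went from −4.04, −3.10 and −3.74 to 0.58, 2.88 and 3.81 (66.3-fold, log2 change 6.05, SE 1.60, adjusted p = 0.0136). Its call was lost without IT S2 replicate 1 (5.84) or IT S3 replicate 2 (5.82). The potassium channel AKT1 (VIT_11s0016g04750) went from −2.84, −1.01 and −2.72 to 1.91, 1.06 and 0.42 (log2 change 3.32, SE 0.99, adjusted p = 0.0275), lost without IT S2 replicate 1 (3.00), IT S2 replicate 3 (3.06), IT S3 replicate 1 (2.93) or IT S3 replicate 2 (3.36) and with the slide as a fixed block (3.98, adjusted p = 0.0887).

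Defence and stilbene genes had the lowest median log2 change of the 16 lists, −0.45 (0.033 without scaling between arrays), with 5 rises (6.76%) and 6 falls of 74. In total 14.9% were called, near the 15.6% of all annotated probes. Chitinases, which cut the chitin of fungal walls, split by gene group, with 3 rises and 3 falls of 10. The class V chitinase VIT_11s0206g00030 fell 8.77-fold from −1.74, −1.62 and −1.54 to −4.19, −5.11 and −5.00 (adjusted p = 9.43e-05), and VIT_11s0149g00380 fell 8.28-fold from −1.62, −1.48 and −1.48 to −4.13, −5.00 and −4.60 (adjusted p = 0.000116). These probes read nearly alike on every array, and whether they measure separate genes was not tested. A chitinase III gene (VIT_16s0050g02210, chosen after its values were seen) rose from −4.57, −5.36 and −4.59 to −2.03, −1.41 and −1.57 (log2 change 3.17, SE 0.76, adjusted p = 0.0072), with 2 of 3 S2 arrays well above background. Its call was lost with normexp background correction (0.92, adjusted p = 0.158) and with the slide as a fixed block (3.50, adjusted p = 0.0885). Of 19 probes annotated to germacrene D synthases, which make sesquiterpenes, 2 fell and none rose.

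**Figure D3:**
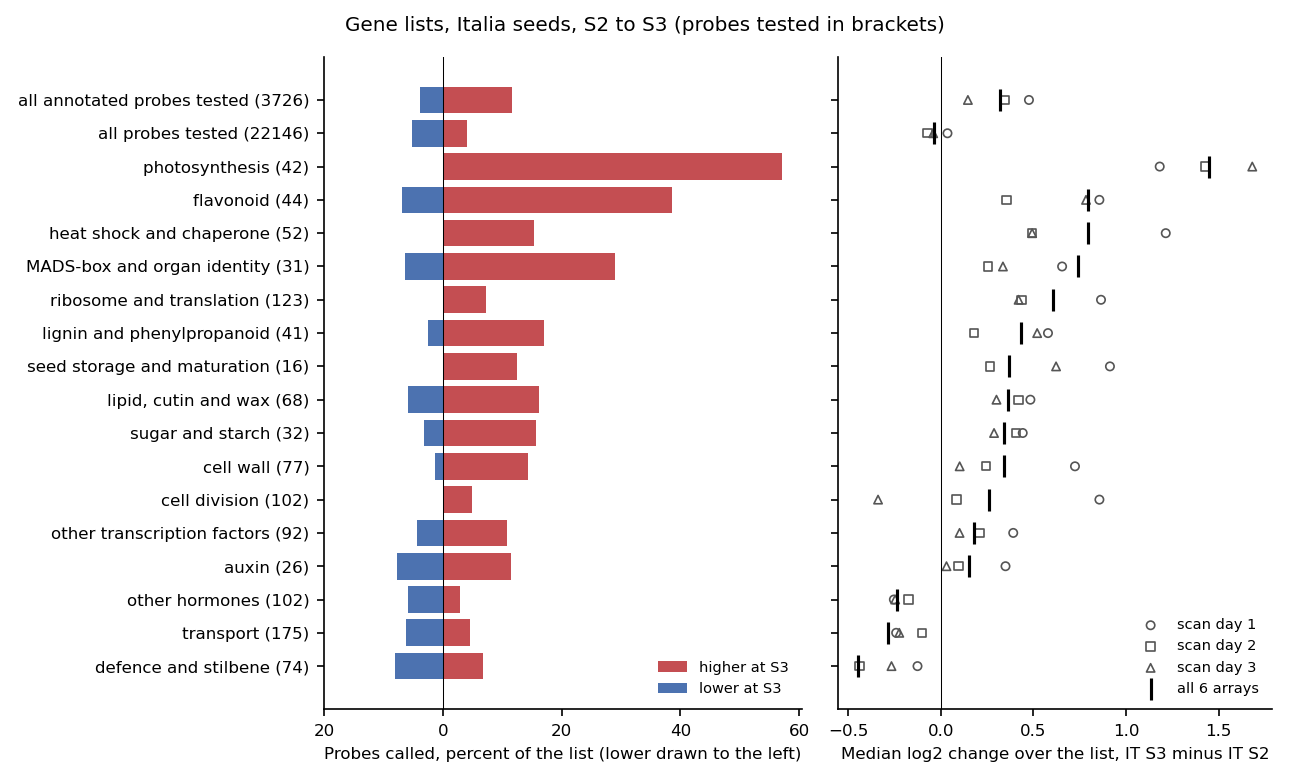
Left, the percent of each of 16 gene lists called higher (to the right) and lower (to the left) at S3, with the number of probes tested in brackets. Right, the list's median log2 change over all 6 arrays (bar) and within each of 3 scan days (open symbols). Photosynthesis (24 of 42 higher) and flavonoid genes (17 of 44 higher) lie farthest to the right, and the cell division medians lie on both sides of 0.

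The 5 largest called rises and falls among annotated probes that were well above background on all 6 arrays, with stages that did not overlap, came from several functions. Besides the potassium transporter and the benzoyltransferase, the rises were an allergenic protein Pt2L4 (VIT_12s0059g00590), from −1.92, −2.16 and −1.60 to 1.92, 2.61 and 2.63 (19.5-fold, adjusted p = 0.000589), lactoylglutathione lyase (VIT_04s0023g03040), which detoxifies methylglyoxal, from −3.30, −3.03 and −2.76 to −0.18, 1.61 and 2.18 (18.8-fold, adjusted p = 1.67e-05), and the glucan endo-1,3-beta-glucosidase given with the cell wall. The Pt2L4 probe had a mean of 5.66 at S4. Within the same limit, the falls included the polygalacturonase VIT_13s0064g00750 and the 3-ketoacyl-CoA synthase. The bifunctional nuclease BFN1 (VIT_00s0301g00100), known in Arabidopsis from senescence and programmed cell death, fell 49.0-fold from 3.58, 2.55 and 3.28 to −2.85, −3.20 and −1.37 (log2 change −5.61, SE 0.69, adjusted p = 1.04e-05). Its S1 mean was −0.95, so S2 was its highest stage. The subtilisin P69E (VIT_02s0025g04820), a secreted protease, fell 32.5-fold from −0.07, 1.31 and −0.22 to −4.37, −5.09 and −4.59 (adjusted p = 0.000589). A germacrene-D synthase (VIT_19s0014g04850) read 1.89, −1.91 and 2.30 at S2 and −5.09, −3.94 and −3.84 at S3 (log2 change −5.05, SE 1.16, adjusted p = 0.00515), with replicate 2 far below the others at S2 but still above all S3 arrays.

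Some genes were at background at one of the stages. Of the called probes, 18 were well above background on all S3 arrays and no S2 array, and 25 the other way round. For these, a bound was computed against the lowest signal that was well above background on each array, which was −3.59 on IT S2 replicate 2 and between −7.41 and −6.23 on the other 5. The bounds hold for the main processing only. Across the alternatives fitted, the smallest log2 change was 2.74 for copper transporter 2 and 2.45 for aspartic protease AP10. It was −2.98 for the subtilase, −2.15 for the acid phosphatase and −1.59 for the mannan endohydrolase. Each of these is a smaller change than the bound given below. Copper transporter 2 (VIT_03s0110g00370) reached −1.84, 0.45 and 1.39 at S3 and was at least 42.2-fold higher than at S2 (adjusted p = 0.00046). Aspartic protease AP10 (VIT_05s0020g00950) reached −1.96, 0.28 and 0.93 and was at least 35.5-fold higher (adjusted p = 0.000204), and a GDSL lipase (VIT_10s0003g02110) reached −4.40, −1.82 and −1.45 and was at least 6.98-fold higher (adjusted p = 0.0105, lost without IT S2 replicate 1, with a log2 change of 3.07, or IT S3 replicate 2, with 3.19, and with normexp background correction, with 0.58). In all 3, replicate 1 was the lowest S3 array. Not well above background at S3 were a subtilase (VIT_18s0001g10320), which read −1.63, −1.12 and −0.54 at S2 and was at least 50.8-fold lower at S3 (adjusted p = 1.76e-05), an acid phosphatase (VIT_09s0018g01800), which read −2.74, −1.63 and −2.78 and was at least 20.9-fold lower (adjusted p = 0.000446, but 0.0633 with the slide as a fixed block), and a 1,4-beta-mannan endohydrolase (VIT_18s0089g00140), which read −4.16, −3.32 and −3.71 and was at least 8.17-fold lower (adjusted p = 0.000388).

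Many of the largest changes had no annotation. The probe GSVIVT01018139001, chosen after its values were seen, fell from 3.05, 1.66 and 3.21 to −6.18, −4.79 and −3.29 (log2 change −7.40, SE 1.25, adjusted p = 0.000336). The probe GSVIVT01034984001, chosen the same way, rose from −3.37, −2.18 and −3.06 to 2.52, 1.53 and 2.02 (log2 change 4.89, SE 0.95, adjusted p = 0.00122).

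The same step was measured in the other varieties on arrays that are not shared with Italia, and the difference between 2 varieties' changes was tested in the same fit. Red Globe had 3145 probes called (14.2%, with 5.52% higher and 8.68% lower) and Thompson Seedless 2963 (13.4%, with 7.72% higher and 5.66% lower). Of the 916 probes higher in Italia at S3, 488 were also higher in Red Globe, which is 53.3% of the Italia list and 39.9% of the Red Globe list. With Thompson Seedless 219 were shared, 23.9% of the Italia list and 12.8% of the other. Of the 1145 lower probes, 522 were shared with Red Globe (45.6% and 27.2%) and 286 with Thompson Seedless (25.0% and 22.8%), and 106 of them were called higher in Thompson Seedless against 6 in Red Globe. The change itself differed from that of Red Globe for 278 probes (1.26%, with the higher change in Italia for 0.822% and the lower for 0.433%) and from that of Thompson Seedless for 2339 (10.6%). Italia lay on slides and scan days of its own while Red Globe and Thompson Seedless shared theirs. A batch and the variety therefore cannot be told apart in the level of Italia. Each change is taken within a variety, but in Italia only replicate 1 had S2 and S3 on the same slide. In Red Globe and Thompson Seedless no replicate number had S2 and S3 on the same slide or in the same scan session. The changes and their differences can therefore hold slide or session effects. Without IT S2 replicate 1, IT S2 replicate 3, IT S3 replicate 1 and IT S3 replicate 2 the count against Red Globe was 99, 110, 168 and 142, and the count against Thompson Seedless was 1471 without IT S3 replicate 2.

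Named genes and lists were then set beside the other varieties. Most named genes had been picked for a large change in Italia or after their values were seen, which favours a larger change there. The photosynthesis list had a median log2 change of 1.94 in Red Globe with 29 of 42 higher, and of 1.16 in Thompson Seedless with 18 higher. None of the 42 was called different between Italia and Red Globe, where only 1.26% of all probes were, so equal changes are not shown. Against Thompson Seedless 2 had the higher change in Italia (4.76%, against 9.80% of all annotated probes). VviAGL11 changed by 2.02 in Italia, 1.52 in Red Globe (adjusted p = 0.013) and 0.93 in Thompson Seedless (adjusted p = 0.15), and neither difference was called. Isoflavone reductases rose in Red Globe in all 7 neighbouring genes and in Thompson Seedless in none. The difference from Thompson Seedless was called for 6 of 7, against 10.6% of all probes. Of the 44 flavonoid names, however, 18 come from a table of genes that differed between Red Globe and Thompson Seedless at S3. The flavonoid list is therefore not independent evidence of such a difference. Nodulin 1A VIT_03s0063g01160 (chosen after its values were seen) rose more in Italia than in either variety, by 2.96 log2 units against Red Globe (adjusted p = 0.0055) and by 1.84 against Thompson Seedless (adjusted p = 0.0285), and gibberellin 20 oxidase 2, whose ID lies close to it, rose by 2.79 more than in Red Globe (adjusted p = 0.0343). Of the 7 nodulin 1A probes, 3 were called different from Red Globe and 2 from Thompson Seedless, where 6 rose. The germacrene-D synthase VIT_19s0014g04850 fell in Italia and rose in Red Globe by 4.91, a difference of −9.96 (adjusted p = 0.0029). RD22 (VIT_04s0008g04090, chosen after its values were seen), a gene induced by drought and abscisic acid in Arabidopsis, rose in Italia from near background, by 3.70 (adjusted p = 0.0111), and fell in Red Globe by 4.31, a difference of 8.01 (adjusted p = 0.0029), and its Italia call was lost without IT S2 replicate 1 (2.76) or IT S3 replicate 2 (3.44), with normexp background correction (0.35, adjusted p = 0.684) and with the slide as a fixed block (4.02, adjusted p = 0.105). In Red Globe its replicates disagreed at S2 (mean −2.82, SD 3.05), and its S3 mean was as low as −7.13.

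Against Thompson Seedless, the changes of many cell division and defence probes differed. Of 102 cell division probes, 25 fell and 2 rose in Thompson Seedless with a median log2 change of −0.83, and 21 differed from Italia, all with the higher change in Italia (20.6%, against 9.80% of all annotated probes and 3.50% of all probes). Of 16 histone probes, 12 fell in Thompson Seedless and none in Italia, and 10 differed. The names of 84 of the 102 cell division probes, however, come from a table of genes that differed between Red Globe and Thompson Seedless at S3, so this list is not independent evidence of such a difference. Of 74 defence probes, 29 rose in Thompson Seedless with a median of 1.27, and 24 had a lower change in Italia (32.4%, against 5.02% of all annotated probes and 7.06% of all probes), with 10 names from that table. Both chitinases on chromosome 11 had a lower change in Italia (differences of −4.35 and −4.45 log2 units, adjusted p = 0.00021 and 0.00017), and for PDR12 the difference was −5.34 (adjusted p = 6.5e-06), since it fell in Italia and Red Globe and rose in Thompson Seedless. The glucan endo-1,3-beta-glucosidase rose in Italia and by 4.32 in Red Globe but had a change of 0.34 in Thompson Seedless (difference 3.36, adjusted p = 0.002). VviAP3b fell in all 3 varieties, by 2.53, 4.53 and 4.09 log2 units.

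**Figure D4:**
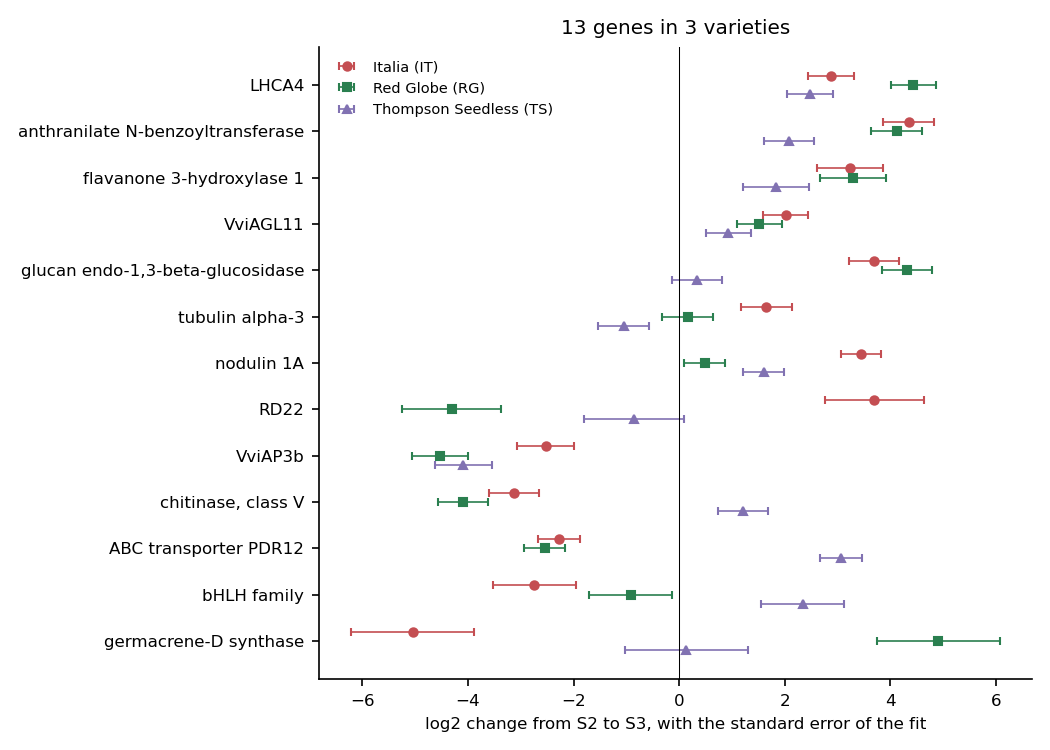
Log2 change from S2 to S3 of 13 genes in Italia (circle), Red Globe (square) and Thompson Seedless (triangle), each with the standard error of the fit. LHCA4 and VviAP3b lie on the same side of 0 in all varieties, the class V chitinase and PDR12 are below 0 in Italia and Red Globe and above it in Thompson Seedless, and RD22 and the germacrene-D synthase have opposite signs in Italia and Red Globe. The Red Globe S2 replicates of RD22 had an SD of 3.05.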

How the data were processed

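Ovule and seed RNA of 3 varieties at 4 stages was hybridised to a custom 1-colour Agilent array. The deposited scanner files hold, for each spot, the processed signal intensity that the authors obtained with Agilent Feature Extraction 10.7.1.1 (version as the file headers give it), background-subtracted and not scaled between arrays. The methods describe a 75th percentile normalization, which the deposited intensity values do not carry. For 99.1% of values the deposited value table equals the mean of the scanner spots within 0.1%.

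Unflagged spots of a probe were averaged, and log2 intensity minus each array's 75th percentile was taken. A probe stayed in if some group among the 12 had it well above background on each of its 3 arrays, and 101 probes with flagged spots were left out. One mean per group was fitted over 36 arrays with limma 3.58.1 in R 4.3.3 (24 residual degrees of freedom), p-values were adjusted by Benjamini-Hochberg over 22146 probes, and calls needed an adjusted p under 0.05 and a log2 difference over 1. Differences between varieties are interaction contrasts of that fit. The fit was tested on simulated data. The precision is limited by 3 arrays per group.

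Names come from the study's annotation tables (3742 of 22582 probes), and 16 gene lists were made by search terms applied to them. The comparison, lists and terms were chosen with earlier results of these data known. In each list, the 2 largest rises and falls were named among calls well above background on all 6 arrays and without overlap. The 5 largest each way of all annotated probes under the same conditions, the 3 largest bounds each way and VviAGL11 and EDE1 were added. Families within lists and genes marked so in the text were chosen after their values were seen. Replicates are biological according to the labels. After the group means were taken off, arrays of S2 and S3 with the same number correlated at 0.105, 0.046 and 0.068 over probes. Those with different numbers correlated at −0.075 to 0.012. The correlation estimated for a random block was 0.327 for the scan day and 0.426 for the slide. The main fit did not treat the numbers as pairs and held no block, so it leaves such shared variation in the residuals. With the scan session as a random block 3059 probes were called, among them all 2061 of the main fit. Alternatives covered scaling, background, filters, blocks, weights, the arrays in the fit, the methods' t-test and leaving out each array.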

Additional observations from a re-analysis of the deposited data

Results flagged for a closer look

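The results below were singled out because the change from S2 to S3 in Italia differed from that of another variety by the interaction contrast of the fit. These genes had first been named for a large change in Italia or after their values were seen. The contrast uses the same Italia arrays, so a larger change in Italia was favoured by the choice. The adjusted p-values do not allow for this. Differences are log2 changes of Italia minus those of the other variety.

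Against Red Globe the terpene gene had the widest gap. The germacrene-D synthase VIT_19s0014g04850 had a difference of −9.96 (adjusted p = 0.0029) and, against Thompson Seedless, −5.18 (adjusted p = 0.0404), with 1 of 3 Italia S2 arrays far below the others. RD22 (VIT_04s0008g04090) had 8.01 against Red Globe (adjusted p = 0.0029) and 4.56 against Thompson Seedless (adjusted p = 0.027). Its Red Globe S2 replicates had an SD of 3.05, and its Italia call was lost under the settings given above. Nodulin 1A (VIT_03s0063g01160) had 2.96 (adjusted p = 0.0055) and 1.84 (adjusted p = 0.0285), OFP3 (VIT_06s0004g07910) 2.48 (adjusted p = 0.0141) and 3.58 (adjusted p = 0.00011), and gibberellin 20 oxidase 2 (VIT_03s0063g01290) 2.79 against Red Globe (adjusted p = 0.0343).

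Against Thompson Seedless, these genes had the higher change in Italia. Of cell wall genes, glucan endo-1,3-beta-glucosidase (VIT_18s0122g00980) differed by 3.36, polygalacturonase VIT_01s0127g00400 by 3.85, FLA2 (VIT_12s0057g01020) by 2.50 and pectinesterase (VIT_11s0016g03020) by 2.40. In the flavonoid pathway the differences were 6.89 for chalcone and stilbene synthases (VIT_00s0317g00160), 2.44 for isoflavone reductase 5 (VIT_03s0038g04660) and 2.07 for flavonoid 3'-hydroxylase b (VIT_17s0000g07210). Tubulin alpha-3 chain (VIT_18s0001g08250) differed by 2.70, ribosomal protein L1 (VIT_12s0028g01980) by 1.54, the translation initiation factor eIF-1 (VIT_19s0177g00110) by 2.82, plastocyanin (VIT_18s0001g00760) by 1.50, anthranilate N-benzoyltransferase (VIT_00s0207g00010) by 2.26 and lactoylglutathione lyase (VIT_04s0023g03040) by 3.37. Adjusted p-values of these 13 lay between 0.002 and 0.0493.

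The lower change was in Italia for the bHLH gene VIT_11s0052g00100 at −5.08 (adjusted p = 0.00413), PDR12 (VIT_09s0002g05390) at −5.34, both chitinases, VIT_11s0206g00030 at −4.35 and VIT_11s0149g00380 at −4.45, BFN1 (VIT_00s0301g00100) at −3.39 (adjusted p = 0.0246) and the ACC oxidase VIT_02s0012g00360 at −2.97 (adjusted p = 0.00108).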

How the results depend on the processing

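The count of calls between S3 and S2 in Italia (2061, with 916 higher and 1145 lower) stayed within 1.5 times of itself under most alternatives. Without scaling between arrays, which moved the median of all probes to 0.44, it was 308 (197 higher and 111 lower). With array weights it was 5570 (2138 and 3432). Quantile normalization gave 1409 higher, normexp background correction gave 531 higher and moved the median of all probes to −0.38, and the scan session as a random block gave 1791 lower. The methods' t-test gave 4715 probes at an unadjusted p under 0.05, but 8 past 2-fold after adjustment (6 higher and 2 lower). Leaving out 1 array gave 993 to 2395 calls, 480 to 1118 higher and 513 to 1277 lower. The difference from Red Globe (278 probes) gave 19 without scaling, 69 with normexp, 179 when each of the 6 arrays had to be above background, 939 and 449 with the slide as a random and a fixed block, 841 with the scan session as a random block, 4615 with array weights, and 99 to 309 without 1 array. The difference from Thompson Seedless (2339) gave 316 without scaling, 1393 with that filter, 3642 with the slide and 3560 with the scan session as random blocks, 8522 with array weights, and 1471 to 2708 without 1 array. With the replicate number within each variety as a block, which only in Italia is also the scan day, 2190 probes were called, 1980 of them the same as without it, and 2013 when only the 6 arrays entered the fit. List medians changed sign for other hormones (0.25), transport (0.20) and defence (0.033) without scaling. With normexp they did so for MADS-box genes (−0.27), other transcription factors (−0.46), cell division (−0.14), cell wall (−0.24), lignin and phenylpropanoid (−0.03), seed storage (−0.27) and auxin (−0.15). The auxin median was also below 0 when each of the 6 arrays had to be above background (−0.076) and without IT S3 replicate 2 (−0.022). Changes near 0 turned as well. EDE1 (VIT_05s0094g00420) gave −0.22 with normexp, −0.23 with array weights and −0.13 to 0.63 without 1 array. VviAP3a (VIT_18s0001g13460) gave 0.44 without scaling, 0.0085 with median scaling, 0.0063 and 0.094 with the slide as a random and a fixed block, 0.034 with array weights, 0.90 within the shared slide and −0.46 to 0.47 without 1 array. The leafy cotyledon 1-like probe (VIT_00s0956g00020) gave −0.50 with normexp. The cause of these differences was not tested, except that leaving out an array leaves fewer samples. Of 78 named genes, 36 kept their call under every alternative fitted. Low signal limits dim probes, since 295 of the higher and 242 of the lower calls were not well above background on IT S2 replicate 2.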
